A study of Homo sapiens with 18 samples.

Results

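Annexins are cytosolic proteins that bind acidic phospholipids, mainly phosphatidylserine, when calcium rises. At a hole in the plasma membrane calcium enters, and annexins gather at the wound, where they can cross-link, curve and pull together the torn edges. Melittin (MEL), the main peptide of bee venom, inserts into membranes and disrupts them, and the study used it to induce oxidative stress. The 8 genes described here were chosen by name as annexins with a part in membrane repair (ANXA1, ANXA2, ANXA3, ANXA4, ANXA5, ANXA6, ANXA7 and ANXA11). They are 8 of the 19775 genes that have at least 1 probe set to themselves on the array, and 17 of its 54675 probe sets name exactly 1 of them. A probe set is a group of short probes that read 1 stretch of a transcript, and the brightest probe set on average stands for its gene.

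RNA levels were measured on 18 arrays of K562 cells, a human chronic myeloid leukemia line. All cells, the controls included, carried a retroviral vector and had been purified by NGFR, the vector's selection marker. The vectors were LCALRwtIDN (CALRwt, the wild-type control), LCALRdel52IDN (CALRdel52) and LCALRins5IDN (CALRins5), the last 2 carrying mutations known from myeloproliferative neoplasms. Calreticulin is a calcium-binding chaperone of the endoplasmic reticulum. Each was profiled untreated and after exposure for 24 h to 5 μg/mL of MEL, which gave 6 groups of 3 arrays. The series design describes 24 h of culture with or without MEL, while the label protocol and the supplement have RNA of cells without MEL taken directly after sorting. An effect of MEL and one of culture time cannot be told apart if the second is right. The label protocol and the paper speak of 3 independent experiments for the sorted cells. For cells with MEL no such statement was found, and the arrays are not tied to experiments, so there the spread behind the p-values may be technical.

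All 9 measured K562 and erythroid markers (GATA1, TAL1 and KLF1 among them) lay above the array median in every array, and the 3 monocyte and macrophage markers (CD14, CSF1R and CD163) below it. CD3D, EPCAM and COL1A1, which mark T cells, epithelium and fibroblasts, had means of 8.88, 11.28 and 7.46 in untreated cells. Other markers of the same cell types were lower (CD3E 4.97, CD2 3.20, CDH1 3.41, COL1A2 4.17 and PDGFRB 4.75). CD3E, the endothelial marker PECAM1 and the B cell marker CD79A (5.50) still lay above the array median of 4.60 in every array. The other measured B cell marker, MS4A1 (3.58), lay below it. With MEL, 5 K562 markers changed (ABL1 0.50, TFRC 0.41, HBE1 0.22, LMO2 −0.42 and GATA1 −0.20). EPCAM was also lower (−0.26), and the endothelial markers PECAM1 (0.27) and VWF (0.24) were higher at means of 4.61 to 5.49, while CDH5 stayed at 2.34 to 2.86. Their part in the results was not tested. RNA breakdown was gauged by how far the 3' probe set of GAPDH exceeded its 5' probe set, which was 0.31 to 0.41 on the log2 scale in untreated arrays and 0.42 to 1.33 with MEL. For ACTB it was 0.74 to 1.10 and 1.02 to 2.82. The GAPDH ranges did not overlap between treatments. An effect of MEL and one of RNA breakdown therefore cannot be told apart, also where the GAPDH difference is used as a covariate below. CALRins5 MEL replicate 1 had the highest GAPDH and ACTB differences. CALRdel52 MEL replicate 3 was also counted as an array that stood apart, on grounds not given here. Its GAPDH and ACTB differences (0.65 and 1.21) lay within the range of the other MEL arrays. Some results below are also given without these arrays. The main fits used all arrays, so a value printed without such a note may depend on them.

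The bases before the start of 3 members are shown because these had the smallest adjusted p-values among higher members (ANXA4 and ANXA3) and lower members (ANXA7) with MEL. Each sequence is the 250 bases before the RefSeq start (GRCh38.p14), 5′ to 3′ on the gene's strand. Capitals mark matches, on either strand, to any of 7 motifs: the TATA box TATAAA, the CCAAT box CCAAT, the GC box GGGCGG, the AP-1 site TGANTCA, the cAMP response element TGACGTCA, the antioxidant response element core TGACNNNGC and the GATA site AGATAA. Neighbouring GC boxes can overlap.
ANXA4, chr2:69643558-69643807, plus strand: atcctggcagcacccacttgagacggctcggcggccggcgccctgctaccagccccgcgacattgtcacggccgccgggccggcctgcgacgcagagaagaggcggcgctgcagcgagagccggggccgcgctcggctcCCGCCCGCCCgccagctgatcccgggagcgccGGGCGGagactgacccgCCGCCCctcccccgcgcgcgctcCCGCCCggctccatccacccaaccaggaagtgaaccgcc
ANXA3, chr4:78551520-78551769, plus strand: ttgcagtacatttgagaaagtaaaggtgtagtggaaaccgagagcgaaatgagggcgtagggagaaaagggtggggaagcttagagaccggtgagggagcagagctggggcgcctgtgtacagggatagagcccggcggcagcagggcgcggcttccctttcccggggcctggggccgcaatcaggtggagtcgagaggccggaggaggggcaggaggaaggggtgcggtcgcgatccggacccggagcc
ANXA7, chr10:73414059-73414308, minus strand: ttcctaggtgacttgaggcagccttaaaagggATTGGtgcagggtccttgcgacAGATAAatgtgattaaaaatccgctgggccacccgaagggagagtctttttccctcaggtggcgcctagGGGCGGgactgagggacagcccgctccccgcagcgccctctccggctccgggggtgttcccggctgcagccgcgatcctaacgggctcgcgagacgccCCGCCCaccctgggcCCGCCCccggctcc
The ANXA4 window, at the first of its 2 starts, held 5 GC boxes and none of the other motifs. The ANXA7 window held 3 GC boxes, 1 CCAAT box and 1 GATA site, and the ANXA3 window held none of the 7. Among 35116 RefSeq windows of the same length, 42.6% held a GC box, 32% a CCAAT box and 9.17% the GATA site. The other shares were 10.7% for the TATA box, 6.57% for the AP-1 site, 1.65% for the cAMP element and 10.9% for the antioxidant core. These windows had GC contents of 77.2% (ANXA4), 64.0% (ANXA3) and 66.0% (ANXA7), against a median of 58.0% over all windows. All 8 members were found in the promoter table, with 12 windows between them, since ANXA4, ANXA6 and ANXA11 have more than 1 start. ANXA1, ANXA2 and ANXA11 each had 1 window with a TATA box, and the single AP-1 match among the 12 windows was that of ANXA2.

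With MEL, 4 of the 8 annexins were higher over the 3 vectors and 2 were lower. Here and below, a change with MEL is the difference from untreated cells, whose time in culture may have differed. ANXA4 and ANXA3 rose by 0.55 and 0.48 on the log2 scale, ANXA2 by 0.22 and ANXA6 by 0.16. ANXA7 fell by 0.35 and ANXA5 fell by 0.18. ANXA1 (0.01) and ANXA11 (0.14) did not pass the test, which was limma with p-values adjusted by Benjamini-Hochberg over every probe set on the array (threshold 0.05). The share of all probe sets called was 33.7%, with 17.1% higher and 16.6% lower, so calls were common on these arrays. With each array centred on its own median, the share of calls that were higher was 34.8% instead of 50.7%, and ANXA6 was no longer called. Over all 17 annexin probe sets, 8 were higher and 4 lower. The median change of the 8 annexins was 0.15, beside 0.04 over all probe sets. The RNA is from whole cultures, in which fewer cells of a kind and less RNA per cell cannot be told apart.

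**Figure D1:**
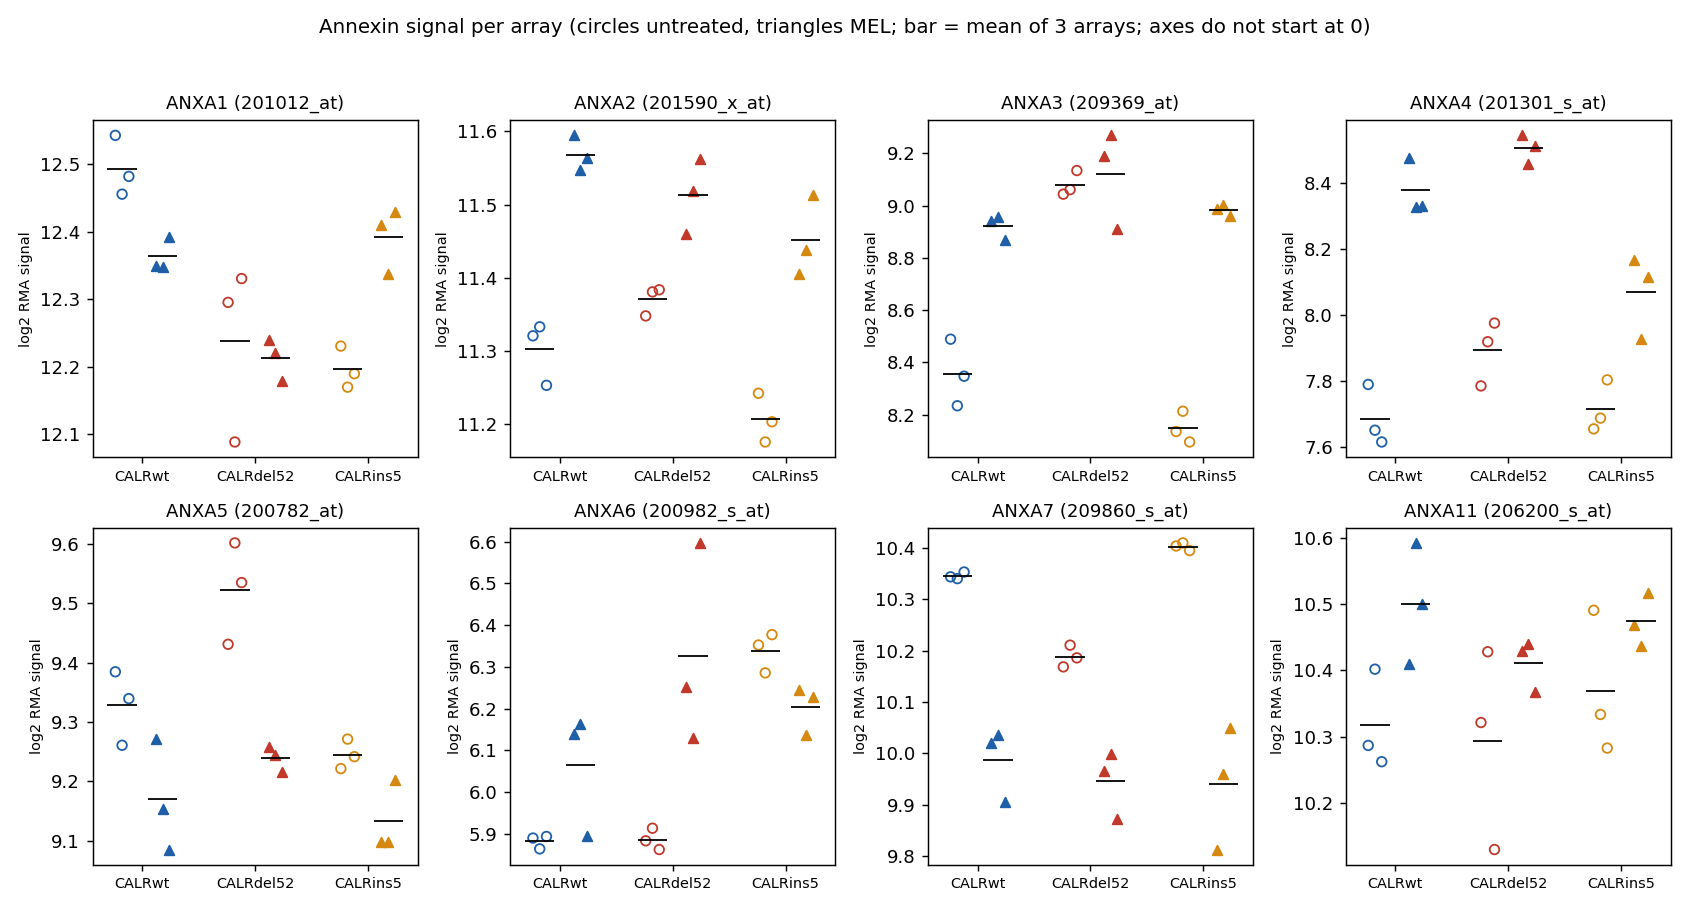
Log2 RMA signal (vertical axes, each on its own scale and not starting at 0) of the brightest probe set of the 8 annexins by vector (horizontal axes), where open circles are untreated arrays, triangles are arrays with MEL and short bars are means of 3 arrays. The ANXA2 arrays with MEL (11.41 to 11.59) lie above all untreated arrays (11.18 to 11.38), and the ANXA7 arrays with MEL (9.81 to 10.05) lie below all untreated ones (10.17 to 10.41).

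ANXA4, an annexin of secretory and epithelial cells that assembles on membranes into sheets, had the smallest adjusted p of the 8 (chr2:69643808-69827112 in GRCh38.p14, as for the other genes). In CALRwt cells its log2 signal was 7.79, 7.65 and 7.62 untreated and rose to 8.48, 8.33 and 8.33 in the presence of MEL. In CALRdel52 cells it was 7.79, 7.92 and 7.98 against 8.54, 8.46 and 8.51. In CALRins5 cells it was 7.66, 7.69 and 7.80 against 8.17, 7.93 and 8.12. The groups did not overlap within any vector, but CALRins5 MEL replicate 2 lay below the highest untreated CALRdel52 array. The change over the vectors was 0.55 (standard error 0.05, limma adjusted p = 3.6e-07), or 1.47-fold, and all vectors passed (CALRwt 0.69, CALRdel52 0.61, CALRins5 0.35). The second ANXA4 probe set rose by 0.66 (standard error 0.06, adjusted p = 1.4e-07), and its 9 arrays with MEL (7.52 to 8.09) lay above the 9 untreated ones (6.83 to 7.50). With the GAPDH difference as a covariate the change over the vectors was 0.49 (adjusted p = 9.7e-05). For the brightest probe set the call in CALRins5 cells depended on single arrays. Its adjusted p was 0.0877 without MEL replicate 1 and up to 0.0665 without 3 others (MEL replicate 3 and untreated replicates 1 and 2). With the covariate it was 0.216. The second probe set rose by 0.58 in CALRins5 cells (limma adjusted p = 9.7e-04).

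ANXA3, an annexin known from neutrophil granules, was the member with the largest log2 differences between untreated vectors (chr4:78551770-78610447). Its untreated values were 8.49, 8.23 and 8.35 in CALRwt, 9.04, 9.06 and 9.13 in CALRdel52 and 8.14, 8.21 and 8.10 in CALRins5 cells. With MEL they were 8.94, 8.96 and 8.87 in CALRwt, 9.19, 9.27 and 8.91 in CALRdel52 and 8.99, 9.0 and 8.96 in CALRins5 cells. The untreated CALRdel52 arrays were thus already within the range of the MEL arrays. ANXA3 rose with MEL by 0.57 in CALRwt (standard error 0.09, limma adjusted p = 5.7e-04) and by 0.84 in CALRins5 cells (adjusted p = 2.7e-05), or 1.48-fold and 1.78-fold. In CALRdel52 cells the change was 0.04 (95% interval −0.15 to 0.24, adjusted p = 0.816). ANXA3 was read by 1 probe set alone.

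ANXA2 is the annexin that forms a tetramer with S100A10 and links membranes to actin, and it is known to reach membrane wounds early (chr15:60347151-60397986). In CALRwt cells its values were 11.32, 11.33 and 11.25 untreated and 11.59, 11.55 and 11.56 with MEL. In CALRdel52 cells they were 11.35, 11.38 and 11.38 against 11.46, 11.52 and 11.56, and in CALRins5 cells 11.24, 11.18 and 11.20 against 11.41, 11.44 and 11.51. All 9 arrays with MEL lay above all 9 untreated ones. The rise over the vectors was small, at 0.22 (standard error 0.04, limma adjusted p = 4.5e-04) or 1.16-fold, and it passed within CALRwt (0.27) and CALRins5 (0.25) but not within CALRdel52 cells (0.14, adjusted p = 0.204). Of the 8 members, 2 (ANXA2 and ANXA7) had arrays that did not overlap between treatments, beside 7.38% of all probe sets. Its 3 bright probe sets, with changes of 0.20 to 0.25, are of the kind marked as prone to cross-hybridisation, and the probe set of the pseudogene ANXA2P2 rose by 0.26 (adjusted p = 1.8e-04), so signals of the gene and its copies may mix. The only ANXA2 probe set without that mark had a mean of 3.41, below the array median of 4.60, and a change of 0.06 (adjusted p = 0.561). The call in CALRins5 cells was lost without any 1 of its 6 arrays (adjusted p = 0.0564 to 0.113), and the call in CALRwt cells without CALRwt untreated replicate 3 (0.0716).

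ANXA6, a double-sized annexin that forms a cap over wounds, had values of 5.86 to 6.6 (chr5:151100706-151157779). In CALRwt cells its values were 5.89, 5.86 and 5.89 untreated and 6.14, 6.16 and 5.89 with MEL. In CALRdel52 cells they were 5.88, 5.91 and 5.86 against 6.25, 6.13 and 6.6, and in CALRins5 cells 6.35, 6.29 and 6.38 against 6.25, 6.14 and 6.23. MEL arrays thus lay above untreated ones in CALRdel52 and, by a narrow margin for 1 array, in CALRwt cells, and below them in CALRins5 cells. The change was 0.44 in CALRdel52 cells (standard error 0.10, limma adjusted p = 0.0107), 0.18 in CALRwt (0.257) and −0.13 in CALRins5 cells (0.488). Without CALRdel52 MEL replicate 3, one of the arrays that stood apart, the CALRdel52 change was 0.30 (adjusted p = 0.0616). The call over the vectors (0.16, adjusted p = 0.0439) was lost in 14 of the 18 fits that left out 1 array (adjusted p up to 0.0839; kept without CALRwt MEL replicate 3, CALRdel52 MEL replicate 1 or 2, or CALRins5 MEL replicate 2) and with the GAPDH covariate (0.343). Without both arrays that stood apart, the change over the vectors was 0.11 (adjusted p = 0.121). The second ANXA6 probe set, with a mean of 3.65, did not change detectably (0.01, adjusted p = 0.960).

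ANXA7, also called synexin, which promotes fusion of secretory granules and works with the calcium-binding protein ALG-2 in repair, lies at chr10:73375101-73414058 and had lower values with MEL in all 3 vectors. In CALRwt cells these were 10.34, 10.34 and 10.35 untreated and 10.02, 10.03 and 9.90 with MEL. In CALRdel52 cells they were 10.17, 10.21 and 10.19 against 9.97, 10.00 and 9.87, and in CALRins5 cells 10.40, 10.41 and 10.39 against 9.81, 9.96 and 10.05. All 9 MEL arrays lay below all untreated arrays. ANXA7 fell by 0.35 over the vectors (standard error 0.05, limma adjusted p = 9.9e-06), or 1.28-fold, by 0.36 in CALRwt and by 0.46 in CALRins5 cells. In CALRdel52 cells, whose untreated level was lowest, the change was −0.24 (adjusted p = 0.0504). The second ANXA7 probe set fell by 0.24 over the vectors (adjusted p = 0.00441), with overlapping arrays. It was not called within any vector. Its changes were −0.29 in CALRwt (limma adjusted p = 0.0623), −0.27 in CALRdel52 (0.0938) and −0.16 in CALRins5 cells (0.403).

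ANXA5, the phosphatidylserine binder used to stain dying cells, forms protective lattices at the edges of a membrane tear (chr4:121667946-121696980). Its single probe set read 9.38, 9.26 and 9.34 in untreated CALRwt and 9.27, 9.15 and 9.09 in MEL-treated CALRwt cells. In CALRdel52 cells the values were 9.43, 9.60 and 9.53 against 9.26, 9.24 and 9.22, and in CALRins5 cells 9.22, 9.27 and 9.24 against 9.10, 9.10 and 9.20. ANXA5 fell by 0.18 over the vectors (standard error 0.05, limma adjusted p = 0.00408) and by 0.28 in CALRdel52 cells (adjusted p = 0.0249). In the others the changes were −0.16 (0.188) and −0.11 (0.436). The call over the vectors was lost with the GAPDH covariate (−0.17, adjusted p = 0.0732) and after a repeated quantile normalization (−0.10, 0.0708). In CALRdel52 cells it was lost without untreated replicate 2 (0.105), untreated replicate 3 (0.0653) or MEL replicate 3 (0.0790), and with the covariate (0.0555).

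ANXA1, a calcium-dependent partner of S100A11 and an inhibitor of inflammation when secreted (chr9:73151865-73170393), had values of 12.09 to 12.54 untreated and 12.18 to 12.43 with MEL. In CALRwt cells the values were 12.54, 12.46 and 12.48 untreated and 12.35, 12.35 and 12.39 with MEL, without overlap. In CALRins5 cells they were 12.23, 12.17 and 12.19 against 12.41, 12.34 and 12.43, without overlap in the other direction. The changes were −0.13 (limma adjusted p = 0.286) and 0.19 (0.131), and −0.03 (0.874) in CALRdel52 cells. ANXA11, which binds the S100 protein S100A6 and tethers RNA granules to lysosomes (chr10:80150889-80205808), had values of 10.13 to 10.49 untreated and 10.37 to 10.59 with MEL (0.14, 95% interval 0.03 to 0.25, adjusted p = 0.0522). It passed in 4 of the 18 fits that left out 1 array, those without CALRwt untreated replicate 2, CALRdel52 untreated replicate 2, CALRins5 untreated replicate 1 or CALRwt MEL replicate 1 (0.0280 to 0.0445). It also passed with quantile normalization repeated (0.21, adjusted p = 0.00634), with bright probe sets alone (0.0250), with trend and robust moderation (0.0148), without moderation (0.0328) and with the mean of its probe sets (0.19, 9.2e-04). It did not with arrays centred (0.09, 0.252), with the GAPDH covariate (0.180) or without both arrays that stood apart (0.0705).

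**Figure D2:**
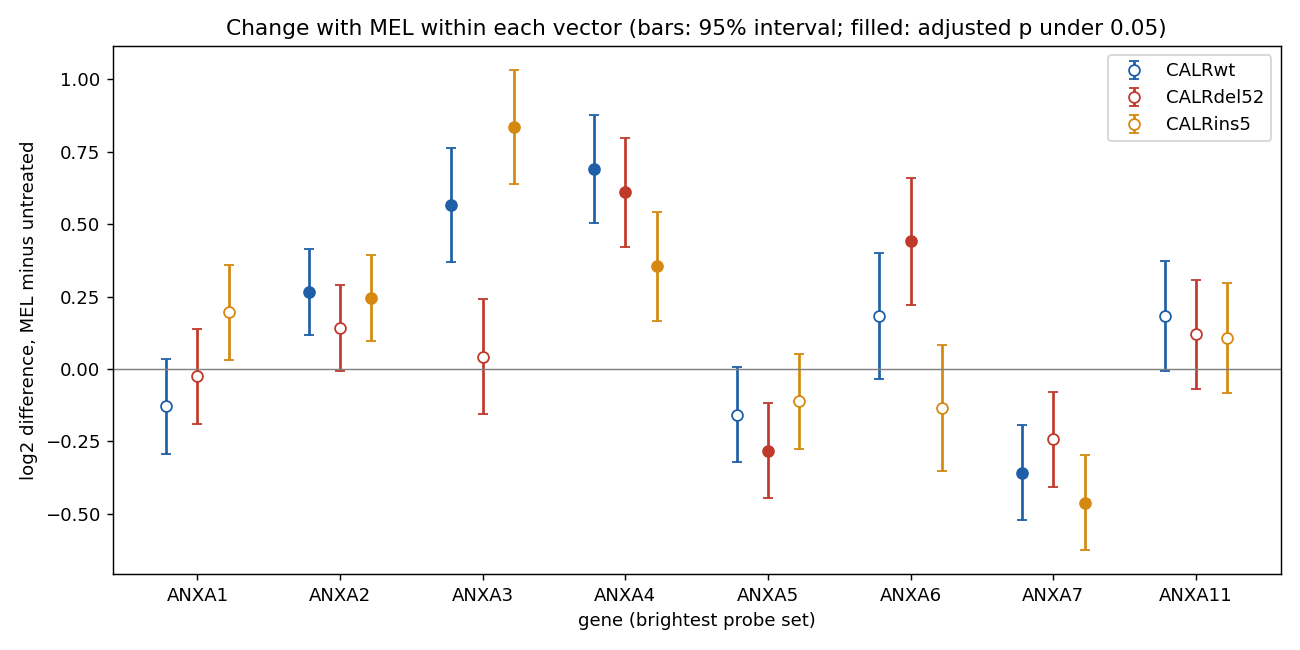
Log2 difference between MEL-treated and untreated cells (vertical axis) of the 8 annexins (horizontal axis) for each vector, from 3 against 3 arrays, with bars for the 95% interval and filled points for an adjusted p under 0.05. ANXA4 was called in all 3 vectors (0.69, 0.61 and 0.35), while ANXA3 was called in CALRwt and CALRins5 cells (0.57 and 0.84) and had a change of 0.04 in CALRdel52 cells.

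Within single vectors, 4 of the 8 annexins differed between MEL-treated and untreated cells in CALRwt (ANXA2, ANXA3, ANXA4 and ANXA7), 3 in CALRdel52 (ANXA4, ANXA5 and ANXA6) and 4 in CALRins5 cells (those of CALRwt). The shares of all probe sets called were 15.8%, 12.2% and 10.1%. Of these calls 42.1%, 40.95% and 38.4% were higher, and 27.5%, 26.7% and 28.9% with arrays centred on their medians, where ANXA2 was not called in either vector and ANXA7 was called in CALRdel52 cells too. ANXA4 was called in all 3 vectors under both scalings. Arrays did not overlap for 7, 5 and 7 of the 8 annexins, beside 34.8%, 29.8% and 29.9% of all probe sets. Without CALRdel52 MEL replicate 3 the count in CALRdel52 cells was 1 (ANXA4). In CALRins5 cells the count was 2 (ANXA3 and ANXA7) without untreated replicate 1 or 2 or MEL replicate 1 or 3.

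Different probe sets of 1 gene gave different changes for 2 members. For ANXA1 the second probe set, with a mean of 8.11, had values of 8.58, 8.31 and 8.71 in untreated CALRwt cells and 8.03, 7.97 and 7.76 with MEL. It fell by 0.57 over the vectors (standard error 0.12, limma adjusted p = 0.00112), whereas the brightest changed by 0.01. For ANXA11 the probe set whose name has no x or s suffix (mean 6.52) rose by 0.51 (standard error 0.07, adjusted p = 1.1e-05). Its values were 6.04 to 6.53 over the untreated arrays and 6.57 to 6.96 with MEL, without overlap. The brightest probe sets of ANXA4, ANXA6, ANXA7 and ANXA11 carry the s suffix. The third ANXA11 probe set (mean 6.94) had a change of −0.06 (adjusted p = 0.402). The difference in change between each of these 3 and the brightest probe set of its gene was −0.58, 0.38 and −0.20, with exact permutation p-values of 5.3e-04, 3.3e-04 and 2.5e-04 (two-sided, 48620 assignments of 9 against 9 arrays). Adjusted over the 9 pairs of probe sets compared, these were 0.00160, 0.00148 and 0.00148. The other 6 pairs, of ANXA2, ANXA4, ANXA6 and ANXA7, had adjusted p-values of 0.118 or more. The pairs were compared after the values had been seen.

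**Figure D3:**
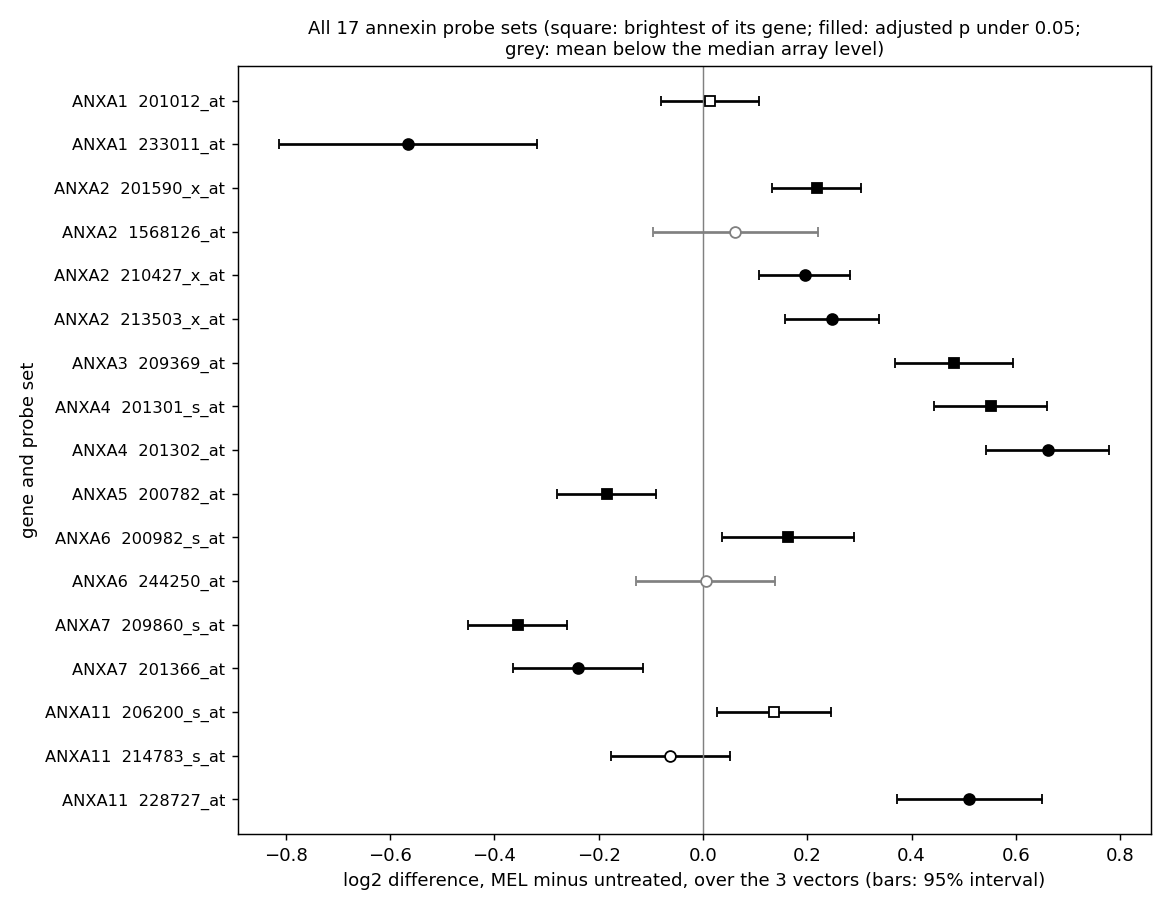
Log2 difference between MEL-treated and untreated cells over the 3 vectors (horizontal axis) of all 17 annexin probe sets (vertical axis), with bars for the 95% interval. Squares are the brightest probe set of each gene, filled points have an adjusted p under 0.05, and grey points have a mean below the array median of 4.60. The 2 ANXA1 probe sets lie at 0.01 and −0.57, and the 3 of ANXA11 at 0.14, −0.06 and 0.51.

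Between untreated cells of different vectors, ANXA3 was the member with called differences from 2 sides. It was higher in CALRdel52 than in CALRwt cells by 0.72 (standard error 0.09, limma adjusted p = 0.0295), or 1.65-fold, where 0.0366% of all probe sets were called. It was lower in CALRins5 than in CALRdel52 cells by a log2 difference of −0.93 (adjusted p = 0.00156), or 1.91-fold, where 0.827% were called. Both comparisons share the CALRdel52 arrays. ANXA6 was higher in CALRins5 than in CALRdel52 cells by 0.45 (standard error 0.07, adjusted p = 0.0200), or 1.37-fold, and its difference from CALRwt cells was of the same size but did not pass (0.46, adjusted p = 0.162). No other member was called in any comparison of untreated cells. The ANXA3 difference between CALRdel52 and CALRwt cells was lost in 7 of the 9 fits that left out 1 untreated array (adjusted p up to 0.177; it held without CALRdel52 untreated replicate 3 and without CALRins5 untreated replicate 2), with values of 0.66 to 0.79. It was also lost with the GAPDH covariate (adjusted p = 0.0991) and in the linear model without moderation (0.103). The ANXA6 difference was lost in 5 of 9 (0.0600 to 0.0966), those without CALRdel52 untreated replicate 1 or 2 or any 1 CALRins5 array, and the ANXA3 difference between the mutants in none of 9. The second ANXA6 probe set differed by 0.05 (adjusted p = 0.915).

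Mutated (CALRdel52 and CALRins5 together) and CALRwt cells were compared as well, and limma called 0 of the 8 annexins in untreated cells, beside 0% of all probe sets. At an unadjusted p under 0.05 there were 3 members (ANXA1, ANXA3 and ANXA6) with limma, beside 5.83% of all probe sets. A linear model without moderation gave 4, with no share of all probe sets from that model to set beside them. ANXA1 differed by −0.28 (95% interval −0.44 to −0.12, limma adjusted p = 0.663), and all 6 mutated arrays (12.09 to 12.33) lay below the 3 CALRwt arrays (12.46 to 12.54), the one member without overlap, beside 2.56% of all probe sets. ANXA3 differed by 0.26 (0.09 to 0.42), a mean over mutants that differed from CALRwt in opposite directions (0.72 and −0.21). CALRins5 and CALRwt cells differed in 0 members, beside 0.00914% of all probe sets called. At an unadjusted p under 0.05 there were 3 members with limma, beside 6.1% of all probe sets. The linear model gave 5, again without such a share.

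With MEL, limma called 0 of the 8 annexins between any pair of vectors or between mutated and CALRwt cells, where the called shares of all probe sets were 0.0494% (mutated against CALRwt), 0.0256% (CALRdel52 against CALRwt), 0.0402% (CALRins5 against CALRwt) and 0.0402% (CALRins5 against CALRdel52). At an unadjusted p under 0.05 limma gave 1 or 2 members in each comparison, beside 7.04% to 8.4% of all probe sets. The linear model gave 2 or 3, with no share of all probe sets from that model to set beside them. The largest difference was that of ANXA4, lower in CALRins5 than in CALRdel52 cells by a log2 difference of −0.43 (95% interval −0.62 to −0.25, adjusted p = 0.121), and it was −0.31 between CALRins5 and CALRwt cells (−0.50 to −0.12, 0.443). Arrays did not overlap in either case, as for 11.6% and 11.4% of all probe sets. ANXA3, which had differed by −0.93 between the mutants before MEL, differed by −0.14 with it (−0.34 to 0.06, adjusted p = 0.751). Over the members and these comparisons the intervals reached from −0.62 to 0.48, so the lack of a call does not show equal levels. Some of them, such as those of ANXA4 above, excluded 0.

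A difference in response, meaning the change with MEL in 1 vector less that in another, gave 0 called members with limma in the 4 comparisons made, beside 0% of all probe sets in 3 of them and 0.0146% between CALRins5 and CALRdel52 cells. At an unadjusted p under 0.05 limma gave 1 to 3 members in each, beside 4.8% to 6.84% of all probe sets. The linear model gave 2 to 7, with no share of all probe sets from that model to set beside them. ANXA3 came closest. Its response was larger in CALRins5 than in CALRdel52 cells by 0.79 (standard error 0.13, 95% interval 0.51 to 1.07, limma adjusted p = 0.0674), which passed in the linear model without moderation (0.0391) and in 4 other alternatives (lowest 0.00464). It was 0.68 without both arrays that stood apart (adjusted p = 0.216), and the adjusted p was 0.263 with only the groups compared, 0.122 with arrays centred, 0.0868 with the GAPDH covariate and 0.0498 to 0.284 without 1 array. It came with the higher untreated level of CALRdel52 cells. ANXA6 had the opposite sign, with a response lower in CALRins5 than in CALRdel52 cells by −0.57 (−0.88 to −0.27, adjusted p = 0.350). For ANXA1 the response in CALRins5 minus that in CALRwt cells was 0.32 (0.09 to 0.56, adjusted p = 0.955), so the opposite directions described above were not shown to differ for this gene.

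The order of the 6 groups was not the same for each annexin. ANXA3 was highest in CALRdel52 cells with MEL (9.12 ± 0.19, SD, n = 3), whose arrays overlapped those of untreated CALRdel52 cells (9.08 ± 0.05). CALRins5 (8.98 ± 0.02) and CALRwt cells with MEL (8.92 ± 0.05) followed, then untreated CALRwt (8.36 ± 0.13) and CALRins5 cells (8.15 ± 0.06), with no overlap between any of these neighbours. ANXA4 was highest in CALRdel52 cells with MEL (8.50 ± 0.04), which overlapped CALRwt cells with MEL (8.38 ± 0.09), and the 3 untreated groups (7.69 to 7.89) overlapped along the order. ANXA7 had 3 separate untreated groups, CALRins5 (10.40 ± 0.01), CALRwt (10.35 ± 0.01) and CALRdel52 (10.19 ± 0.02), above 3 MEL groups that overlapped (9.94 to 9.99). ANXA1 was highest in untreated CALRwt cells (12.49 ± 0.04), and ANXA5 in untreated CALRdel52 cells (9.52 ± 0.09), neither overlapping the group that followed. All 6 groups of ANXA6 and of ANXA11 overlapped their neighbours. These are levels of single probe sets, which differ in brightness, so genes were not ranked against each other.

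Across the 18 arrays, which share 3 vectors and 2 treatments, Pearson's r between annexins was 0.88 for ANXA2 and ANXA4, 0.75 for ANXA2 and ANXA3 and 0.72 for ANXA3 and ANXA4. ANXA7 ran against these 3, with r of −0.79 to −0.85. After group means were removed, the correlations of ANXA2 with ANXA3 and ANXA4 were −0.35 and 0.20, and those of ANXA7 with ANXA2, ANXA3 and ANXA4 were 0.26, 0.39 and −0.10, so the negative relation was not seen within groups. The genes most like ANXA4, of 19774 others, were SRGAP2C (r = 0.95), the mitochondrial thiolase ACAA2 (0.95) and FAM210B (0.95). Those most like ANXA3 were PPM1E (0.97), RPP25 (0.95) and TCN1 (0.95), a vitamin B12 carrier of neutrophil granules. With group means removed these 6 values were 0.22 to 0.69, lower than over all arrays for each of the 6 genes. TCN1 rose with MEL by 0.93 (limma adjusted p = 3.2e-10).

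Annexins work in pairs with S100 proteins and other calcium-binding partners, and of 14 such partners 5 were higher with MEL and 2 lower over the vectors, where 17.1% of all probe sets were higher and 16.6% lower. Their median change was 0.16, beside 0.04 over all probe sets. S100A10, the partner of ANXA2, rose by 0.70 (standard error 0.07, limma adjusted p = 7.3e-07), from 4.78 ± 0.14 (SD, n = 9) to 5.47 ± 0.12, and by 0.64 to 0.75 in each vector. AHNAK, a giant scaffold that binds the complex of both, rose by 0.60, from 7.94 ± 0.18 to 8.54 ± 0.11. S100P rose by 0.45 and S100A11, the partner of ANXA1, by 0.33. S100A9 (0.31) was called but lay below the array median, at 3.06 and 3.37. SRI (sorcin), which binds ANXA7, fell by 0.48, from 9.83 ± 0.12 to 9.35 ± 0.15. PDCD6, which encodes ALG-2, fell by 0.29, and is named after its value was seen. S100A6, a partner of ANXA11, was also below the array median (mean 3.82) and did not pass. S100P was lower in untreated CALRins5 than in CALRdel52 cells by a log2 difference of −0.69 (adjusted p = 0.00648), and so were AXL and PLAT of the lists described next (−0.52 and −0.56, adjusted p = 0.0310 and 0.0397). PLAT was lower in CALRins5 than in CALRdel52 cells with MEL too (−0.69, adjusted p = 0.0219).

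**Figure D4:**
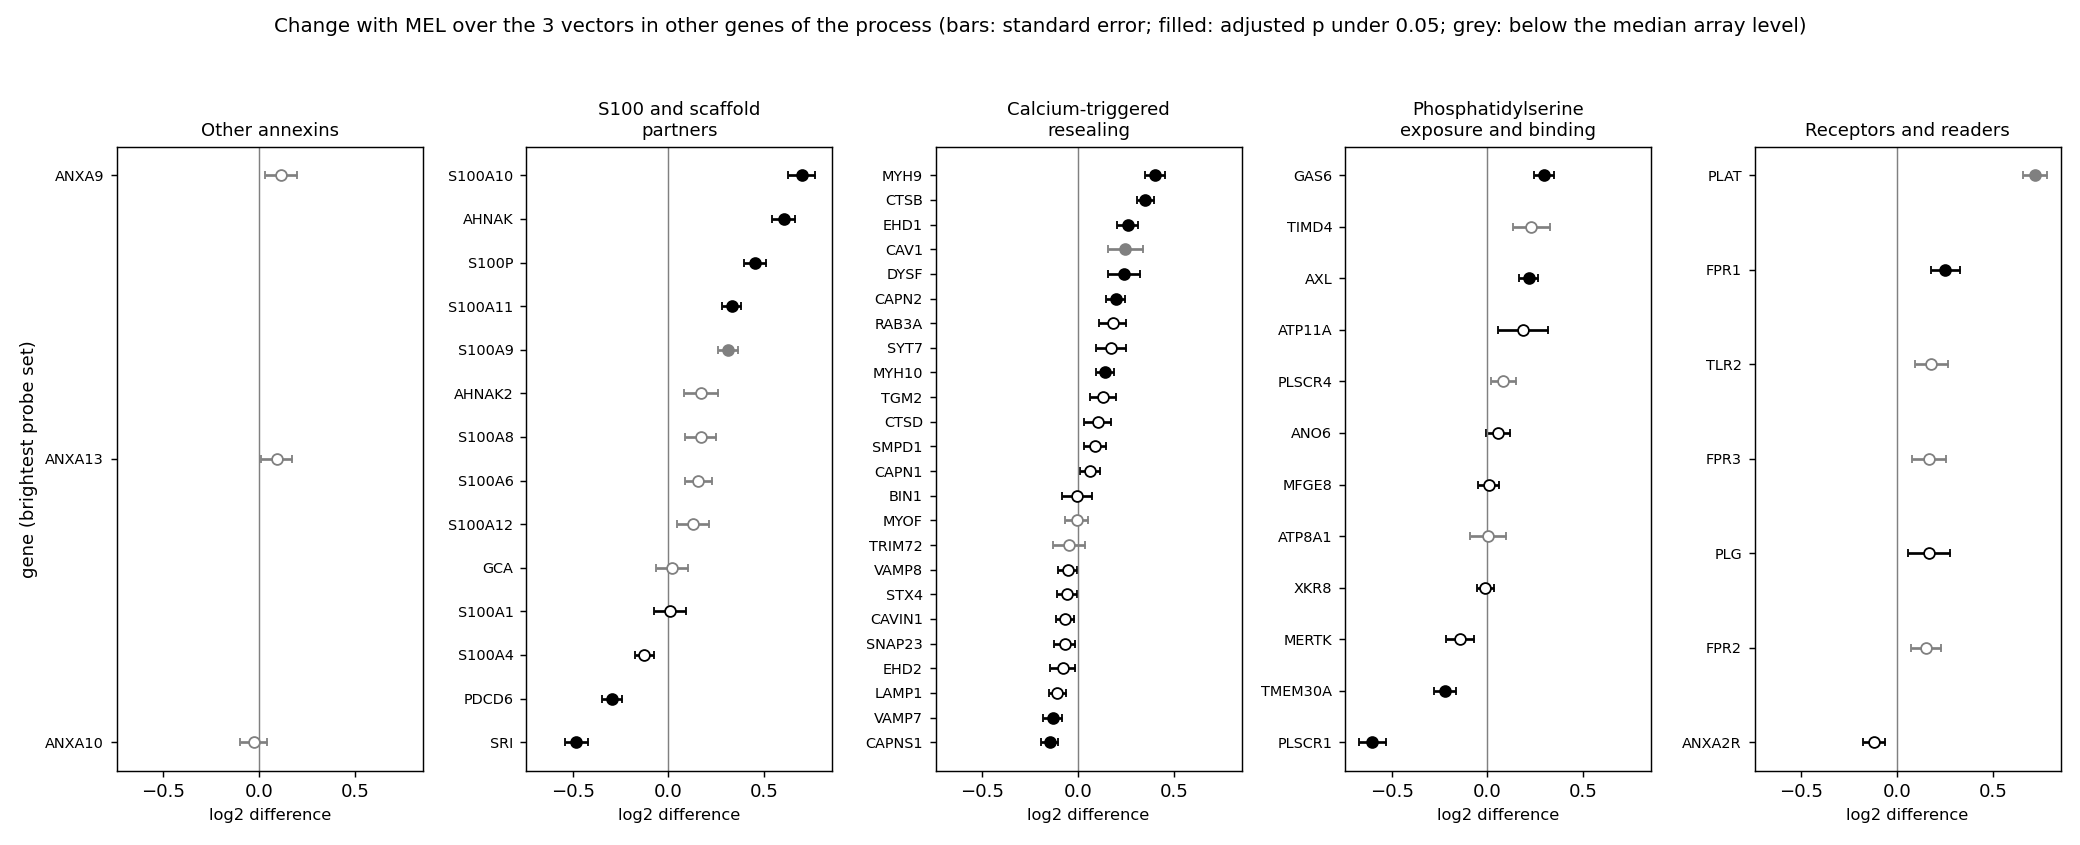
Log2 difference between MEL-treated and untreated cells over the 3 vectors (horizontal axes) of the measured genes of 5 lists (vertical axes), with bars for the standard error, filled points for an adjusted p under 0.05 and grey for a mean below the array median. S100A10 (0.70) and AHNAK (0.60) are the largest increases among the partners, and PLSCR1 (−0.60) and SRI (−0.48) the largest decreases of all.

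Of 24 genes of calcium-triggered resealing outside the annexins and ESCRT-III, 7 rose and 2 fell, with a median of 0.08, a share of calls near the 33.7% of all probe sets. MYH9, the heavy chain of nonmuscle myosin, rose by 0.40 (limma adjusted p = 1.7e-05) and passed in each vector. CTSB, a lysosomal protease released at wounds, rose by 0.35 and also passed in each. EHD1 (0.26), DYSF (dysferlin, 0.24) and the calpain CAPN2 (0.20) rose, as did CAV1 (0.25), which lay below the array median. CAPNS1, the small calpain subunit, fell by 0.15 and VAMP7, a SNARE protein of lysosomes, fell by 0.13, and both are named after their values were seen. TRIM72 (MG53) and MYOF, known from muscle repair, were below the array median and did not pass.

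Of 12 measured genes of phosphatidylserine exposure and binding, 2 rose and 2 fell, with a median of 0.03, which is again a share near that 33.7%. GAS6, a bridge between phosphatidylserine and its receptors, rose by 0.30, and its receptor AXL rose by 0.22. PLSCR1, an interferon-induced scramblase family member, fell by 0.60 (limma adjusted p = 4.0e-06), and TMEM30A, the subunit of flippases, fell by 0.22. Of 7 receptors and readers of secreted annexins 2 rose, also near that share. These were PLAT, the plasminogen activator that ANXA2 binds, by 0.72 at a low level (3.43 and 4.15, below the array median), and the ANXA1 receptor FPR1 by 0.25. ANXA9, ANXA10 and ANXA13 were below the array median, and limma called 0 of them. At an unadjusted p under 0.05 there were also 0, beside 43.5% of all probe sets. ANXA8 and ANXA8L1 have no probe set of their own here.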

How the data were processed

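RNA of K562 cells was hybridised to 18 HG-U133 Plus arrays, 3 for each of 6 groups. Per the labels, the deposited values are log2 intensities that the authors summarised with RMA (background correction, quantile normalization and summary per probe set), with quality control in Partek. Which arrays were normalized together is not stated. Quantile normalization removes a change shared by all genes. Array values carry no read depth, and the number of arrays limits the precision. Probe sets were named from the platform annotation: 41097 name 1 gene, 1801 several and 11777 none, and genes were placed on RefSeq GRCh38.p14.

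The lmFit and eBayes functions of limma 3.58.1 (R 4.3.3) were applied to all 54675 probe sets, with Benjamini-Hochberg adjustment and a threshold of 0.05. The 6 groups of 18 arrays shared one model, and comparisons of untreated cells used their 9 arrays. The methods' ANOVA without moderation was tried as an alternative, beside other scalings, filters, probe set rules, left-out arrays, a replicate block and an RNA quality covariate. The limma script was tested on simulated data. Pairs of probe sets were compared by an exact permutation test. Each member was represented by its brightest probe set, and from each list of other genes up to 6 called genes were named by size of change with MEL. For the 2 members with the smallest adjusted p, the 3 genes with the highest Pearson r were named. The members and lists were chosen with earlier results of these data known. No array was left out, and no 2 arrays held identical values.

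Motif matches and figures were made with Python 3.11.15 and matplotlib 3.10.9. The supplement names another array type (HG-U219) than the probe sets show.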

Additional observations from a re-analysis of the deposited data

How the results depend on the processing

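Over the 3 vectors, ANXA3, ANXA4 and ANXA7 kept their direction and call under every alternative and left-out array, and ANXA2 did so except with the probe set without a cross-hybridisation mark (0.06). Leaving out 1 array gave 5 to 6 called members over the vectors, 3 to 4 in CALRwt, 1 to 4 in CALRdel52 and 2 to 4 in CALRins5 cells, 0 to 1 between untreated CALRdel52 and CALRwt, 1 to 2 between the untreated mutants and 0 to 1 for the difference in response between the mutants. The change of ANXA1 over the vectors was 0.01 and turned negative with arrays centred (−0.035), with the GAPDH covariate (−0.0026) and with the mean of its probe sets (−0.28, limma adjusted p = 0.00546), and was −0.0116 to 0.0287 without 1 array. ANXA2 in CALRins5 cells was −0.0127 with the probe set without the mark.

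For the difference in response between the mutants, where 0 members were called, 1 (ANXA3) was called with quantile normalization repeated, with bright probe sets only, with trend and robust moderation, without moderation and with the mean of all probe sets. Trend and robust moderation called 2 members between untreated CALRdel52 and CALRwt (ANXA1 and ANXA3), 1 between CALRins5 and CALRwt (ANXA1) and 4 between the mutants. Without moderation, 5 were called in CALRdel52 cells with MEL and 0 between untreated CALRdel52 and CALRwt. At an unadjusted p under 0.01, the methods' threshold, it gave 5 with MEL in CALRdel52 cells. Untreated, it gave 4 for mutated against CALRwt, 4 for CALRdel52 against CALRwt, 3 for CALRins5 against CALRwt and 5 between the mutants. With MEL, it gave 2 for CALRins5 against CALRwt and 2 between the mutants. For differences in response, it gave 1 for mutated against CALRwt, 1 for CALRdel52 against CALRwt, 2 for CALRins5 against CALRwt and 2 between the mutants. No share of all probe sets stands beside any count in this paragraph, so these counts have no background to be read against. With only the groups compared, 1 was called in CALRdel52 (ANXA4) and 2 in CALRins5 cells, and ANXA2 was lost in CALRwt cells (limma adjusted p = 0.0649). The mean of all probe sets gave 1 between the untreated mutants (ANXA3) and 1 between the mutants with MEL (ANXA4). Probe sets without an x or s suffix gave 2 in CALRins5 cells and 1 between the untreated mutants. The GAPDH covariate gave 2 in CALRins5 cells and 0 between untreated CALRdel52 and CALRwt. Without both arrays that stood apart, 1 was called in CALRdel52 cells (ANXA4). The cause of these changes was not tested.

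The labels number the arrays 1 to 3 without saying that a number marks a shared culture. Deviations of the 45 same-numbered pairs correlated between −0.22 and 0.23 (16 over 0.1). Their median was 0.06, against −0.02 for the 90 differently numbered pairs, and 15 of the 18 arrays correlated best with their own number. The main fits did not pair the samples by number, and whether a number marks a shared culture was not tested. The replicate block called 0 members between untreated CALRdel52 and CALRwt (ANXA3, adjusted p = 0.0535), lost ANXA6 over the vectors (0.0514) and gained ANXA11 (0.0482).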
